A study of Rattus norvegicus with 24 samples.

Results

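Igf1, Igf2 and Igf1r, which encode the insulin-like growth factors and their signalling receptor, were followed in plantaris muscle of rats bred for a low (LRT) or a high (HRT) gain in running capacity with training. The genes were chosen by Ensembl ID as 3 rows of a table of 31998 genes (Igf1 ENSRNOG00000004517, Igf2 ENSRNOG00000020369 and Igf1r ENSRNOG00000014187). The choice named 4 genes, of which 3 had a row in the table used here. The binding protein gene Igfbp3 had none and was not analysed. All rats were females of line generation 19, aged 14 months. The 4 groups were LRT overload, LRT control, HRT overload and HRT control, with 6 libraries each. In the overload groups the gastrocnemius and soleus had been cut away on one side, which loads the remaining plantaris, and the plantaris was taken 14 days later. RNA came from whole homogenised muscle, so fibres, stroma, vessels and immune cells are mixed in each library, and fewer cells of a type and less RNA per cell cannot be told apart. Whether a control muscle was the opposite leg of an operated rat or came from another rat is not stated in the labels.

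Igf1 is made by the liver and also locally in muscle, where it is known as a growth factor of loaded and injured tissue. Igf2 is foremost a growth factor of the fetus, read from the paternal allele in rodents, and it is also made by differentiating myoblasts. Both bind Igf1r, a receptor tyrosine kinase that drives protein synthesis through Akt and mTOR. Other genes of this pathway and markers of cell types were not tested, because the table gives IDs without symbols and none of the 47357 genes in the name table used here carried an Ensembl ID.

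The promoters of these genes are shown as a description of sequence, and they differ in base composition. A link between these sequences and the response to overload was not tested. The windows are the 250 bases before an annotated start, written 5′ to 3′ on the gene's strand, from RefSeq on the build GRCr8, which is not the build of the counts. Igf1 lies at chr7:24172282-24172531 on the plus strand. Igf2 has 2 such starts, window 1 at chr1:207253981-207254230 and window 2 at chr1:207250476-207250725, both on the minus strand. Igf1r lies at chr1:130959747-130959996 on the plus strand. Capitals mark GGGCGG, the GC box.
Igf1: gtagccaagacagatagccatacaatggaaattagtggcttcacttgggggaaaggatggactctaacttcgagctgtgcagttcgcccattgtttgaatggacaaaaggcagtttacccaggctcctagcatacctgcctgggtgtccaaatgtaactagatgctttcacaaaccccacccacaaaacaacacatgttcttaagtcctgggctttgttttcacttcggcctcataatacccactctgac
Igf2 window 1: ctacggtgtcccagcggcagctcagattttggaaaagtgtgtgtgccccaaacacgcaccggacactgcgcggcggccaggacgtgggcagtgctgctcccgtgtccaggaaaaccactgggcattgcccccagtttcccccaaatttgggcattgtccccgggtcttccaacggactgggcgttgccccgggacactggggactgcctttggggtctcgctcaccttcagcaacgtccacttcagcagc
Igf2 window 2: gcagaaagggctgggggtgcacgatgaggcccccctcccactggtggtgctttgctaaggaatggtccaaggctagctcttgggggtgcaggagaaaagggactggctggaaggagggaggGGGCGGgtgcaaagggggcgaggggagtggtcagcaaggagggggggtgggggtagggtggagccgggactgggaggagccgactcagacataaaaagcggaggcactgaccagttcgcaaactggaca
Igf1r: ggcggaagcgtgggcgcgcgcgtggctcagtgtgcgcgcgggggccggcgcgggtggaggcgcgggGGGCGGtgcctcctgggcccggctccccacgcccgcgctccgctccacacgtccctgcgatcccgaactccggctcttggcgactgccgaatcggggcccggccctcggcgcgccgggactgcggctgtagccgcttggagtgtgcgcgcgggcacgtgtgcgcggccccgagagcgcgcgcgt
The Igf1 window held 46.8% G and C, below the median of 51.2% over 33469 rat windows of this length. The Igf1r window held 79.6%, more than 98.8% of all windows, and the Igf2 windows held 62.4% and 63.6%. Each window was searched on both strands for 4 short motifs, and matches could overlap. The GC box was found once in Igf1r and once in the second Igf2 window, against 30.5% of all windows with at least 1 match. TATAAA (12.9% of all windows), CCAAT (34.0%) and the STAT motif TTCNNNGAA (7.67%) had no match in the 4 windows, which says only that these letters are not there.

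Library totals ran from 26997674 to 34254957 estimated counts, and 16661 genes had enough counts to be tested. The members had 231 to 9361 counts per library, which gives a counting error of 6.58% down to 1.03% of the value. The spread between libraries of a group, which includes that error, was lowest for Igf1r in LRT control. There the coefficient of variation was 7.60%, close to the counting error of 5.73% to 6.58%. Levels are given as CPM, the unit of counts scaled to library totals that were first corrected by a factor per library (TMM), and are compared between groups within a gene, not between genes, since counts are not per length. RNA integrity (RIN) moved with overload: it ran from 8.2 to 8.9 in LRT overload and 8.1 to 8.5 in LRT control, and from 8.6 to 9.4 in HRT overload and 8.0 to 8.6 in HRT control.

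Igf1 rose with overload in both lines. In LRT its lowest, median and highest libraries were at 32.5, 46.7 and 74.7 CPM after overload, against 12.6, 16.5 and 20.2 CPM in control. The LRT groups did not overlap, as was the case for 17.3% of tested genes in this direction. The mean was 49.0 ± 14.5 CPM in overload and 16.3 ± 3.10 in control (SD, n = 6 each), a 3.02-fold rise (log2 fold change 1.59 ± 0.22 SE, edgeR adjusted p = 2.54e-06). In HRT the lowest, median and highest libraries were at 38.7, 70.6 and 88.4 CPM after overload, against 14.3, 18.3 and 23.3 CPM in control. These groups did not overlap either, as for 21.4% of tested genes. The HRT mean was 66.2 ± 23.4 CPM in overload and 18.6 ± 3.46 in control, a 3.57-fold rise (log2 fold change 1.84 ± 0.22 SE, edgeR adjusted p = 2.29e-07). The HRT overload libraries lay in a high set at 85.4 to 88.4 CPM (replicates 1, 2 and 6) and a lower set at 38.7 to 55.8 CPM (replicates 3, 4 and 5). Replicates 1, 2 and 6 also had the highest TMM factors of the 24 libraries, at 1.22, 1.28 and 1.27. Replicates 3, 4 and 5 had factors of 1.01 to 1.09. Replicates 1, 2 and 6 were also the highest of the group in Igf2, at 160 to 253 CPM against 51.0 to 149 CPM. In Igf1r they were at 14.06 to 18.9 CPM against 11.5 to 14.03 CPM, so the sets nearly touched in both genes. The gene nearest to Igf1 over the libraries, named below, split at 43.0 to 54.0 and 20.6 to 29.3 CPM. It was chosen for its likeness to Igf1, so its split is no separate check. The rank of these libraries was thus not particular to Igf1, and its source was not tested.

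**Figure D1:**
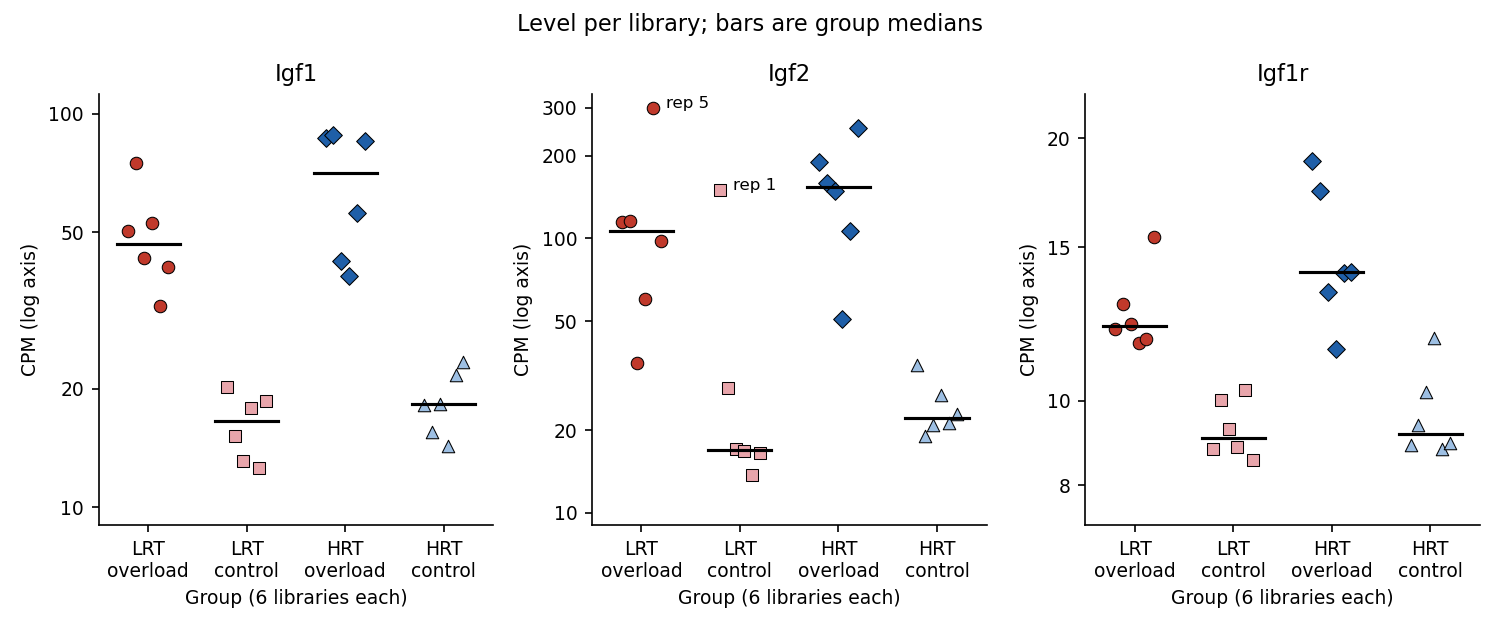
Level of each gene in every library, in CPM on a log axis, with 6 points and a median bar per group. Overload libraries of Igf1 lie above all control libraries of their line, while 1 LRT control library of Igf2 (replicate 1, 149.7 CPM) lies among the overloaded ones.

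Igf2 had the widest spread of the 3 genes. In HRT its lowest, median and highest libraries were at 51.0, 154 and 253 CPM after overload, against 19.1, 22.1 and 34.7 CPM in control. These groups did not overlap, as for 21.4% of tested genes in this direction. The mean was 152 ± 69.3 CPM in HRT overload and 24.3 ± 5.74 in HRT control (SD, n = 6 each), a 6.24-fold rise with a 95% interval of 2.64 to 14.8 (log2 fold change 2.64 ± 0.60 SE, edgeR adjusted p = 0.000646). Of 24 alternatives, the fit with both RIN and the replicate number as terms lost this call (log2 1.66, edgeR adjusted p = 0.146). In LRT the lowest, median and highest libraries were at 35.2, 106 and 299 CPM after overload, against 13.8, 17.0 and 150 CPM in control. Control replicate 1, at 149.7 CPM, overlapped the overloaded libraries, while the other 5 control libraries were at 13.8 to 28.6 CPM, below every overloaded one. The LRT mean was 120 ± 93.1 CPM in overload and 40.4 ± 53.8 in control, a 2.98-fold rise (log2 fold change 1.58 ± 0.58 SE, edgeR adjusted p = 0.0238).

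The LRT value for Igf2 turned on single libraries. Leaving out control replicate 1 gave a log2 fold change of 2.69 (edgeR adjusted p = 4.83e-05), and leaving out overload replicate 5 gave 1.07 (edgeR adjusted p = 0.104). Leaving out control replicate 3, 4, 5 or 6 also ended the call, with log2 fold changes of 1.40 to 1.42 and adjusted p of 0.0518 to 0.0526. RIN as a covariate (log2 1.60, adjusted p = 0.0776) and a fit to the LRT groups alone (log2 1.63, adjusted p = 0.0838) ended the call with a fold change about as large as with all libraries. With both libraries highest in Igf2 left out, an alternative chosen after their values were seen, Igf2 had a log2 fold change of 2.19 in LRT (edgeR adjusted p = 4.71e-05).

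**Figure D2:**
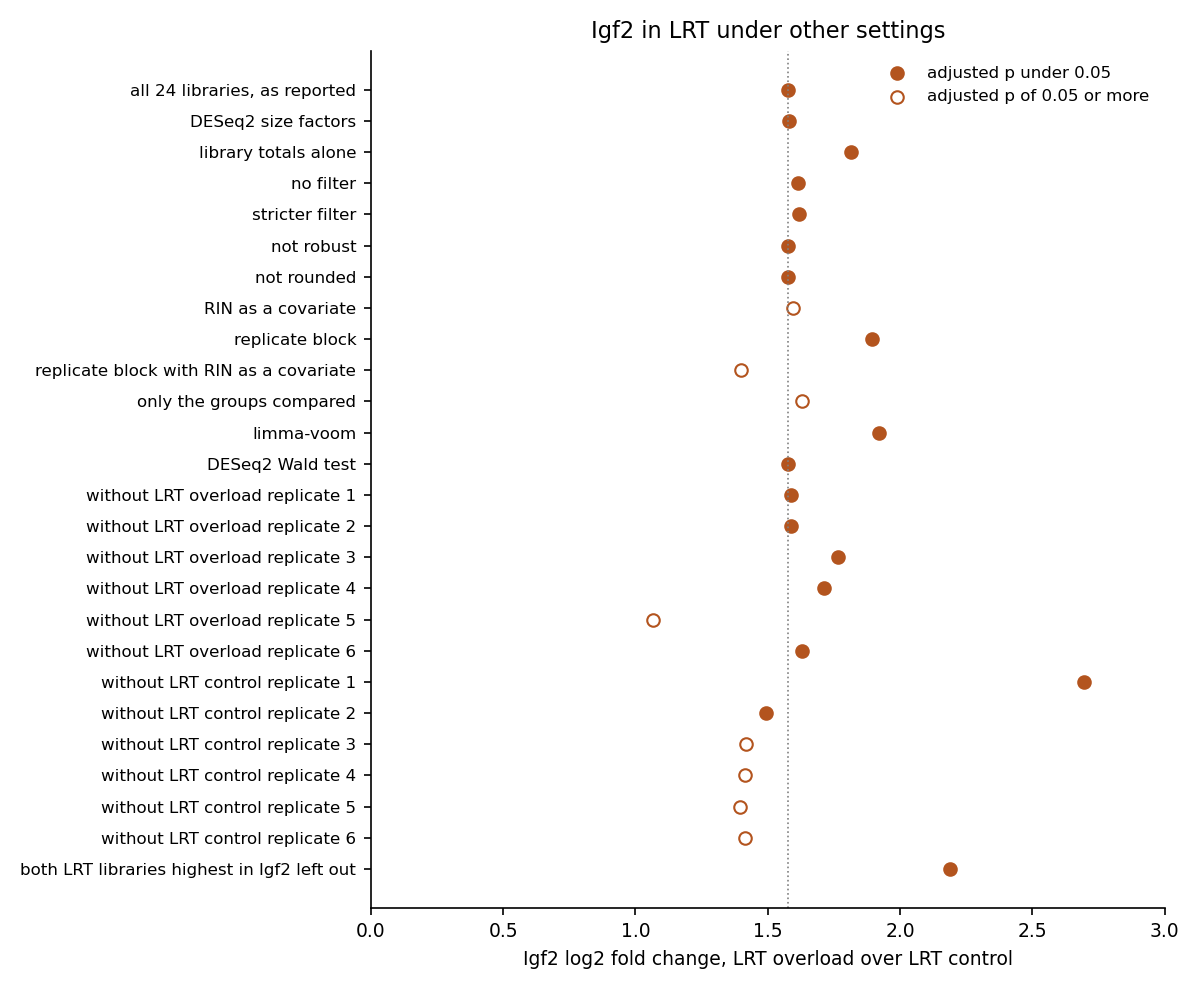
Igf2 log2 fold change of LRT overload over LRT control under each setting tried, one per row; filled points have an adjusted p under 0.05 and the dotted line is the value from all 24 libraries, 1.58. The value runs from 1.07 without overload replicate 5 to 2.69 without control replicate 1.

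Both of those libraries stood out most in Igf2, and each was also the highest or lowest of its group in Igf1. LRT control replicate 1 was 5.23-fold above the next library of its group in Igf2, while its Igf1 (20.2 CPM, the others at 12.6 to 18.6) was 1.08-fold above the next and its Igf1r (8.81 CPM) lay within the others' 8.55 to 10.3 CPM. LRT overload replicate 5 was 2.59-fold above the next library of its group in Igf2 and had the lowest Igf1 of that group, at 32.5 CPM. Of 16661 tested genes, 12 lay over 2-fold above the other 5 libraries in LRT control replicate 1 and 15 in LRT overload replicate 5, counting genes at 1 CPM or more in that library. Igf2 was the 1 gene in both sets. These counts were made after the Igf2 values had been seen.

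**Figure D3:**
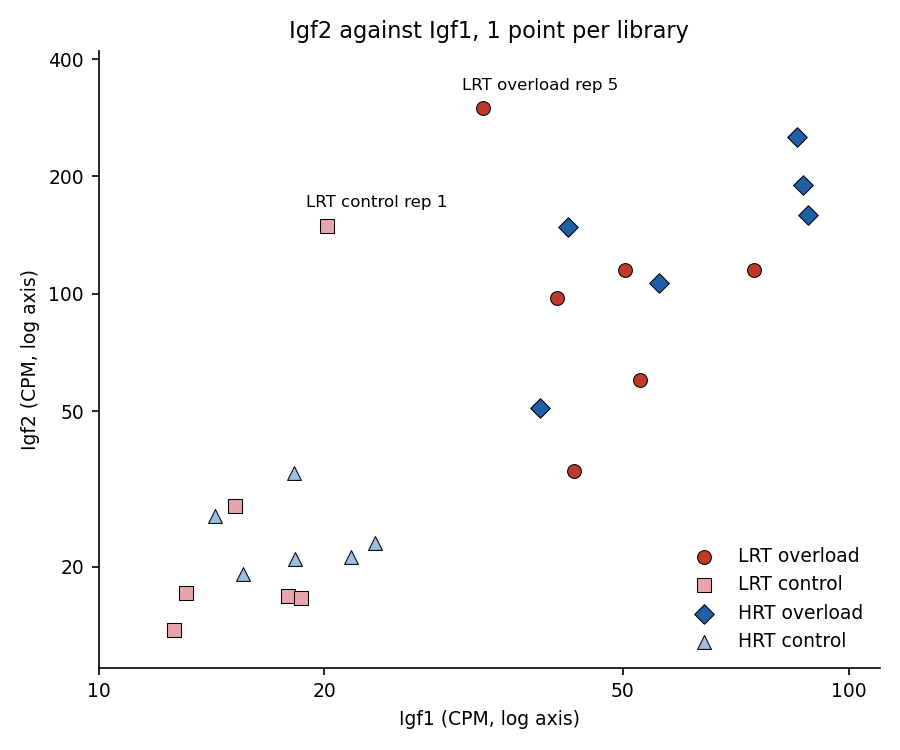
Igf2 against Igf1 in each of the 24 libraries, in CPM on log axes, with a symbol per group. LRT control replicate 1 and LRT overload replicate 5 lie at 150 and 299 CPM of Igf2 with Igf1 at 20.2 and 32.5 CPM.

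Igf1r, the receptor, rose less. In LRT its lowest, median and highest libraries were at 11.7, 12.2 and 15.4 CPM after overload, against 8.55, 9.07 and 10.3 CPM in control. These groups did not overlap, as for 17.3% of tested genes in this direction. The mean was 12.7 ± 1.40 CPM in overload and 9.30 ± 0.707 in control (SD, n = 6 each), a 1.36-fold rise (log2 fold change 0.45 ± 0.10 SE, edgeR adjusted p = 0.000853). In HRT the values were 11.5, 14.0 and 18.9 CPM after overload, against 8.81, 9.16 and 11.8 CPM in control. The HRT groups overlapped by the lowest overload library (replicate 4) and the highest control library (also numbered 4). The HRT mean was 14.9 ± 2.74 CPM in overload and 9.68 ± 1.17 in control, a 1.53-fold rise (log2 fold change 0.62 ± 0.10 SE, edgeR adjusted p = 1.78e-05). Scaling by library totals alone moved the median log2 fold change of all tested genes to 0.22 in LRT and 0.27 in HRT, and that of Igf1r to 0.69 and 0.93.

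All 3 genes thus passed the test upward in both lines, where 28.9% of tested genes did so in LRT and 31.9% in HRT. Set against all tested genes as a description, the Igf1 log2 fold change was above that of 94.0% of them in LRT and 94.1% in HRT. Igf2 was above 93.9% in LRT and 97.6% in HRT, and Igf1r was above 73.8% and 76.9%. The median log2 fold change of the 16661 genes was −0.02 in each line.

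**Figure D4:**
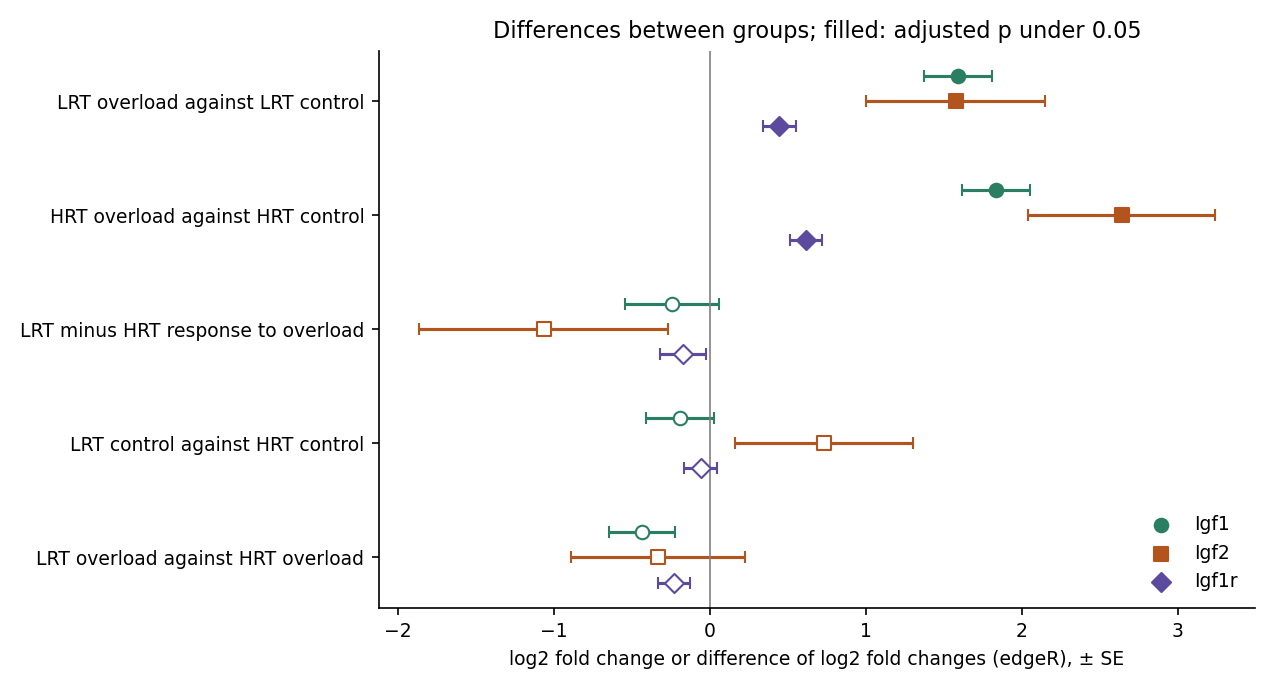
Log2 fold changes, and for the middle row the difference of 2 log2 fold changes, for each gene with bars of ± SE (approximate); filled points have an edgeR adjusted p under 0.05. The 6 overload responses lie to the right of 0 and are filled, and the 9 comparisons that involve the lines are open.

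The difference between the responses of the lines, LRT minus HRT, did not pass the test for any of the genes, and 0.048% of all tested genes passed it (0.00594% without LRT control replicate 1 and 0.149% without HRT overload replicate 4, the lowest and highest with 1 library left out). It was −0.24 ± 0.30 (SE) for Igf1 on the log2 scale, and the ratio of the fold changes had a 95% interval of 0.548 to 1.30 (edgeR adjusted p = 0.75). For Igf1r it was −0.17 ± 0.15, with an interval of 0.720 to 1.10 (edgeR adjusted p = 0.62). For Igf2 it was −1.06 ± 0.80, with an interval of 0.151 to 1.51 (edgeR adjusted p = 0.568), and it was 0.06 without LRT control replicate 1. The 3 unadjusted p were 0.431, 0.257 and 0.197, and no other tool or setting called any of them.

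In overloaded muscle the LRT levels were below the HRT levels on average, by amounts that did not pass the test (3.09% of all genes passed). Leaving out any 1 of the 12 overload libraries moved that share by over 1.5 times, to between 1.02% (without LRT overload replicate 3) and 9.81% (without HRT overload replicate 3), and none of these fits called Igf1, Igf2 or Igf1r. Igf1 was 0.740-fold the HRT level, with a 95% interval of 0.547 to 1.00 (unadjusted p = 0.0503, edgeR adjusted p = 0.225). Igf1r was 0.853-fold, with an interval of 0.737 to 0.988 (unadjusted p = 0.0351, edgeR adjusted p = 0.189). Igf2 was 0.794-fold, with an interval of 0.355 to 1.78 (edgeR adjusted p = 0.768). Without LRT overload replicate 5 its log2 value was −0.84 in place of −0.33 (edgeR adjusted p = 0.438), and with LRT control replicate 1 also left out it was −0.84 (unadjusted p = 0.0200, edgeR adjusted p = 0.203). In control muscle, where 1.97% of genes passed (0.916% when HRT control replicate 4 was left out and 2.94% when LRT control replicate 2 was), LRT over HRT was 0.875-fold for Igf1 (interval 0.641 to 1.20, edgeR adjusted p = 0.719) and 0.960-fold for Igf1r (interval 0.826 to 1.12, edgeR adjusted p = 0.84). Igf2 was 1.66-fold higher on average in LRT control (interval 0.728 to 3.79, edgeR adjusted p = 0.562). Without LRT control replicate 1 this value was −0.39 on the log2 scale, so its sign rests on that library.

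By group mean, Igf1 and Igf1r were highest in HRT overload, then LRT overload, HRT control and LRT control. The overload groups as neighbours did not pass the test of a difference, nor did the control groups. Between LRT overload and HRT control, Igf1 did not overlap, at 32.5 to 74.7 CPM and 14.3 to 23.3 CPM, as was the case for 17.6% of tested genes in this direction. Igf1r did overlap there, at 11.7 to 15.4 CPM and 8.81 to 11.8 CPM. For Igf2 the medians had the same order of groups, but the mean of LRT control stood above that of HRT control.

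Counts of 2 genes were also compared within each library, which does not depend on how libraries are scaled. The Igf1 to Igf1r count ratio moved with overload in both lines. In LRT its log2 value was 1.91 ± 0.43 in overload and 0.79 ± 0.37 in control (SD, n = 6 each), a 2.18-fold higher ratio (two-sided exact permutation test, p = 0.00216, adjusted p = 0.0108 over 10 ratio tests). No smaller p is possible with 2 groups of 6. In HRT it was 2.09 ± 0.36 in overload and 0.93 ± 0.41 in control, a 2.25-fold higher ratio (exact permutation p = 0.00216, adjusted p = 0.0108). In each line the 6 overloaded libraries lay above the 6 control libraries, as they did for Igf1 alone. The share of other gene pairs that separate this way was not computed. The lines' shifts differed by −0.05, LRT minus HRT (permutation p = 0.887).

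The Igf2 to Igf1 count ratio did not pass in either line. In LRT its log2 value was 1.03 ± 1.22 in overload and 0.68 ± 1.15 in control (exact permutation p = 0.578, adjusted p = 0.869). In HRT it was 1.12 ± 0.51 in overload and 0.38 ± 0.44 in control, a 1.67-fold higher ratio (exact permutation p = 0.0195, adjusted p = 0.0649). The count ratio of single LRT libraries ran from 0.818 to 9.20 in overload and from 0.891 to 7.42 in control.

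**Figure D5:**
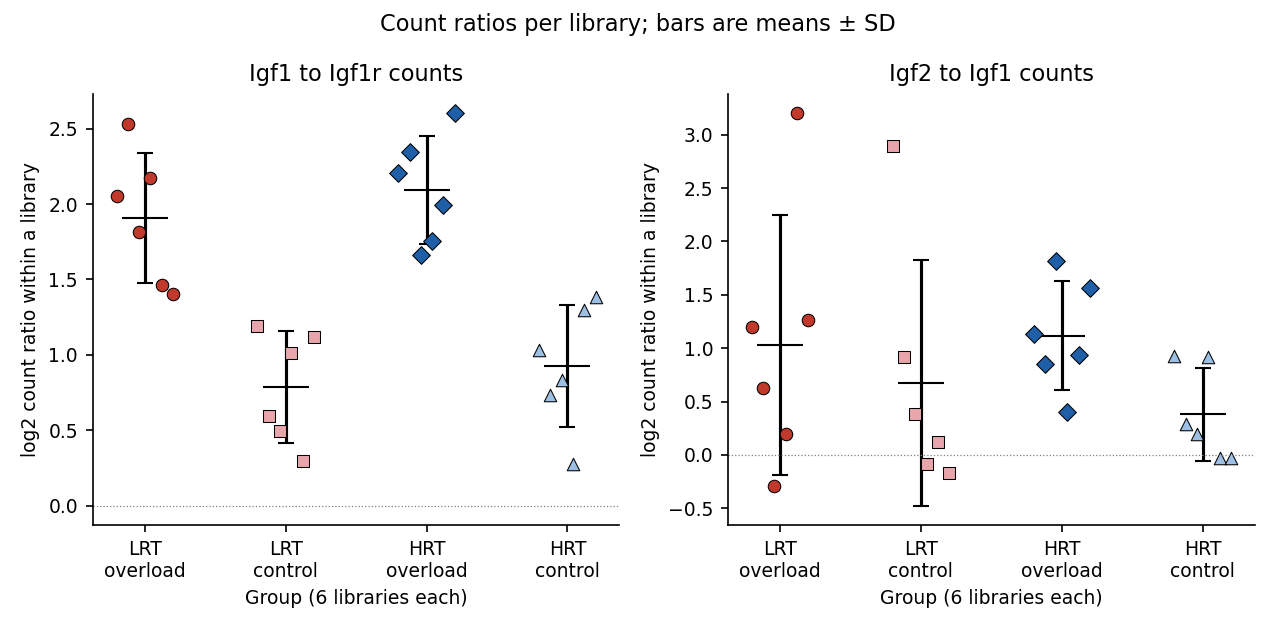
Log2 count ratios within each library for Igf1 to Igf1r and for Igf2 to Igf1, with 6 points per group and bars of mean ± SD. The Igf1 to Igf1r ratio separates overload from control in both lines, and the Igf2 to Igf1 ratio has its highest points in LRT overload replicate 5 and LRT control replicate 1.

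Libraries of 1 group differed most in Igf2. The SD of its log2 CPM was 1.04 in LRT overload, 1.29 in LRT control, 0.80 in HRT overload and 0.31 in HRT control, above that of 98.4%, 98.9%, 96.3% and 76.0% of tested genes. For Igf1 it was 0.41, 0.28, 0.55 and 0.27 in the same groups. For Igf1r it was 0.15, 0.11, 0.26 and 0.16, while the median over all tested genes was 0.21, 0.20, 0.25 and 0.17.

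Within groups no correlation between the 3 genes passed a test after adjustment. With 6 libraries per group even rho = 0.94 did not pass, so a shared order could be missed. Of 12 correlations (3 pairs of genes in 4 groups of 6), 0 passed after Benjamini-Hochberg adjustment by Pearson's r or Spearman's rho, and 2 had an unadjusted exact permutation p under 0.05 by each measure. By r, 5 of the 12 were positive, among them all 3 pairs in HRT overload. There Igf1 and Igf2 had r = 0.78 (exact permutation p = 0.0444, adjusted p = 0.266). Igf2 and Igf1r had r = 0.65 in that group (exact permutation p = 0.157, adjusted p = 0.344). The highest was between Igf1 and Igf1r in HRT overload (r = 0.84, exact permutation p = 0.0403, adjusted p = 0.266; rho = 0.94, exact permutation p = 0.0167, adjusted p = 0.2), and r was 0.60 without the 2 libraries farthest from the median of Igf1. The lowest was between the same genes in LRT control (r = −0.80, exact permutation p = 0.075, adjusted p = 0.3; rho = −0.89, exact permutation p = 0.0333, adjusted p = 0.2), and r was −0.88 without those 2.

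Among 13835 other genes with a mean of at least 1 CPM, many followed Igf1 over the 24 libraries, which share the overload contrast: 1384 had r over 0.9 in log2 CPM. The nearest, ENSRNOG00000007151, had r = 0.98, with 26.9 ± 7.72 CPM in LRT overload and 9.74 ± 1.25 in LRT control, and 36.3 ± 13.9 in HRT overload and 10.8 ± 0.969 in HRT control (SD, n = 6 each). The nearest to Igf1r, ENSRNOG00000010358, had r = 0.94 over the libraries and r = 0.85 in deviations from the group means, the highest by both measures. It was at 6.92 ± 1.25 CPM in LRT overload and 3.26 ± 0.396 in LRT control, and at 7.60 ± 1.91 in HRT overload and 3.73 ± 0.463 in HRT control. Igf2 had no gene with r over 0.9, and its highest was 0.88. In deviations from the group means, 152 genes had r over 0.8 with Igf1, 4 with Igf1r and 1 with Igf2.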

How the data were processed

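Whole plantaris muscle was homogenised and its total RNA sequenced from Illumina TruSeq libraries, per the labels. The authors deposited 1 table of estimated counts per Ensembl gene, not normalized, whose columns were matched to samples by title. Salmon 0.9.1 and the build Rnor_6.0 (also called rn6) are named in the submitters' processing notes. Estimated counts divide reads shared between similar transcripts.

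Here the estimated counts were rounded and filtered by filterByExpr (minimum count 10, minimum total 15). All 24 libraries entered 1 edgeR quasi-likelihood fit (R 4.3.3, edgeR 4.0.16, TMM scaling, robust dispersion, 1 coefficient per group). P-values were adjusted by Benjamini-Hochberg over 16661 genes, with a threshold of 0.05, and they measure only the spread between these libraries. SE is the size of the log2 fold change divided by the square root of F, and 95% intervals are t intervals from it, so both are approximate. Count ratios (pseudocount 0.5) were tested over all 924 splits, or with 100000 permutations for the difference between lines. Log2 CPM for spread and correlation used a prior count of 2.

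Alternatives were DESeq2 1.42.0, limma-voom (limma 3.58.1), other scalings and filters, counts left unrounded, RIN and replicate-number terms, fits to fewer groups and single libraries left out. No pair of the 24 libraries agreed within sampling noise (276 pairs, lowest chi-square per degree of freedom 14.5). The members, lists and tests were chosen with earlier results of these data known. The genes named are the members and the genes most like them, with at most 2 IDs printed. Planned tests of Igfbp3, other pathway genes and cell type markers were not run. Plots were drawn with matplotlib 3.10.9.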

Additional observations from a re-analysis of the deposited data

Results flagged for a closer look

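The rule examined 20 sets of 6 libraries (3 genes and 2 ratios in 4 groups). In 4 of them a library's gap to its nearest neighbour was large against the range of its group. Chance gives about 1 in 20 if values are normally spread. Genes were examined in CPM and ratios on the log2 scale. The flags for LRT control replicate 1 rest on the same Igf2 value, so the 4 are not independent. Igf2 in LRT control replicate 1 was at 149.7 CPM, and the other 5 libraries averaged 18.6 ± 5.76 (SD), so the gap took up 0.891 of the range. Its log2 ratio of Igf2 to Igf1 counts, 2.89, stood apart in the same way (0.647 of the range). Igf2 in LRT overload replicate 5 was at 299.1 CPM, and the other 5 averaged 84.8 ± 35.7 (0.696 of the range). In log2 CPM it was at 8.22, with the others at 5.14 to 6.85, so its gap took up less of the range. Igf1r in LRT overload replicate 6 was at 15.4 CPM, above 11.7 to 12.9 CPM in the other 5 (0.660 of the range); without it overload over control in LRT came to 0.39 on the log2 scale (edgeR adjusted p = 0.00345). High gaps of the same kind were found in 0.486% of tested genes in LRT control replicate 1 and 1.02% in LRT overload replicate 5. Over the 12 LRT libraries the share ran from 0.282% to 2.51%. In the LRT overload group only replicate 2, at 1.30%, had a larger share than replicate 5. The source of the high Igf2 values was not tested.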

How the results depend on the processing

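The overload responses of Igf1 and Igf1r kept their direction and their call in both lines under each of the 24 or 25 alternatives run. Igf2 did not. In LRT its log2 fold change was 1.60 with RIN as a covariate, 1.40 with RIN and the replicate block and 1.63 in a fit to the compared groups alone, none of them past the threshold, and 1.07 to 2.69 with single libraries left out. In HRT it was 1.66 with RIN and the replicate block. The labels tie no replicate number to an animal or batch. Deviations of same-numbered libraries correlated at −0.10 to 0.13 in LRT overload and control, −0.07 to 0.06 in HRT overload and control, −0.07 to 0.04 between the control groups and −0.13 to 0.37 between the overload groups, where 3 of 6 pairs were over 0.1. These correlations cannot show whether the numbers mark pairs, and the numbers were not taken as pairs because the labels state none. The block alone ended no call of the 3 genes (Igf2 in LRT 1.90, edgeR adjusted p = 0.00796). With same-numbered libraries taken as pairs, the Igf1 to Igf1r shifts stayed 1.12 (LRT) and 1.17 (HRT), with adjusted p of 0.156 by an exact sign-flip permutation test, whose unadjusted p of 0.0312 is the smallest 6 pairs can give.

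Differences that passed no test changed sign under some settings. With single libraries left out, Igf2 ran from −1.57 to 0.055 for LRT minus HRT response and from −0.39 to 0.91 for LRT over HRT control, and Igf1r from −0.089 to 0.0079 for LRT over HRT control. The Igf2 to Igf1 ratio ran from −0.080 to 0.80 for overload in LRT, −0.82 to 0.059 for the difference between responses, −0.14 to 0.47 between controls and −0.52 to 0.18 between overload groups, and the Igf1 to Igf1r ratio from −0.17 to 0.084 for the difference between responses. With both libraries highest in Igf2 left out, LRT over HRT control was −0.39 for Igf2 and −0.14 for Igf2 to Igf1, and the difference between Igf1 to Igf1r responses was 0.12. With RIN and the block, Igf2 in LRT over HRT overload was 0.0017. By medians the Igf2 to Igf1 shift in HRT was 0.79 and passed (adjusted p = 0.0433). The cause of these changes was not tested. Depth limited Igf1r most, with 231 counts in its lowest library and, in LRT control, a counting error close to the whole spread.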
